A study of Mus musculus with 12 samples.

Results

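The Fanconi anemia genes described here are 10 rows of a table of 35976 genes, chosen by name: Fanca, Fancb, Fancc, Fancd2, Fance, Fancf, Fancg, Fanci, Fancl and Fancm. All 10 passed the filter on low counts and were among the 16166 genes tested. RNA was sequenced from primordial germ cells, the embryonic precursors of the gametes, taken from female mouse embryos at stage E14.5 by sorting for an Oct4-GFP reporter, with 5000 cells per extraction. The 12 libraries formed 4 groups of 3. WT was wild type. HxD was homozygous for the allele HxD (Tet1HxD/HxD), whose TET1 protein is described as lacking catalytic activity. V was homozygous for the allele V (Tet1V/V), described as stalling at 5-hydroxymethylcytosine, and KO lacked Tet1 (Tet1-/-). All groups shared sex, stage, reporter and extraction, and the labels do not state the strain, the litters or whether embryos were pooled. Replicates may therefore be technical, and the p-values measure only the spread between these libraries. TET1 oxidizes 5-methylcytosine in DNA, and the comparisons ask which transcripts differ when the protein, or only its activity, is altered.

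The Fanconi pathway repairs DNA interstrand crosslinks, which block replication and transcription. FANCM anchors a nuclear core complex of FANCA, FANCB, FANCC, FANCE, FANCF, FANCG and the ubiquitin ligase FANCL at the lesion, the complex attaches ubiquitin to FANCD2 and FANCI, and nucleases, translesion polymerases and homologous recombination then complete the repair. Mice lacking genes of this pathway form too few primordial germ cells and are subfertile, and FANCM also limits meiotic crossovers.

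Of the 10 genes, Fancm was called higher in the knockout and no other member was called in any comparison. Faap100, which encodes a partner of FANCB and FANCL in the core complex, was called lower over the mean of the mutants. The promoters of Fancm and Faap100 are shown because these were the genes called, and because TET1 acts on cytosines of CpG dinucleotides, which are in capitals. Each line holds the 250 bases before the RefSeq start in GRCm38.p6, on the strand of the gene, at chr12:65075353-65075602 (plus strand) for Fancm and chr11:120378747-120378996 (minus strand) for Faap100.
Fancm promoter: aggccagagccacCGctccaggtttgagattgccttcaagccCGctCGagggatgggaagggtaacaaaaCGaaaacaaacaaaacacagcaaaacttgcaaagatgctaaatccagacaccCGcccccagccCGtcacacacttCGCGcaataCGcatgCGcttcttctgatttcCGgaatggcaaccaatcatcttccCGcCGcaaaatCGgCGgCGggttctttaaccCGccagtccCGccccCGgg
Faap100 promoter: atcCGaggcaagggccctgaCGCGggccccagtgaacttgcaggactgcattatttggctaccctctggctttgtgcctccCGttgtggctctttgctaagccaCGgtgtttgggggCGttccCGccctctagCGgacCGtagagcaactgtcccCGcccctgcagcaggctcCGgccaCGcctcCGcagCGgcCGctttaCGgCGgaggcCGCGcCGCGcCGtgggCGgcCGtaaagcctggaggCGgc
The Fancm window held 19 CpG dinucleotides, more than 80.3% of 32851 RefSeq promoters of the same length, and the Faap100 window held 25, more than 89.3%. Across all of these promoters the median was 6. Fancm held the letters TCCCGC, searched on both strands and found in 16.9% of promoters, 2 times, and Faap100 held them 1 time. DNA methylation was not measured in these libraries, and a letter match describes the sequence only. RefSeq entries were matched for 9 of the 10 genes. Among those 9 Fance, not called, stood highest with 21 CpG dinucleotides, above Fancm, and Fancl lowest with 2. Fancb and Fanci, not called, also held TCCCGC 2 times. Of the other pathway genes, none of these called, Rev1 (42) and Blm (29) held more CpG dinucleotides than Faap100, and Slx4 (3) and Mus81 (5) held few.

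Libraries held 18471158 to 29495313 counts, and the 10 genes held 148 to 4854 counts each per library. Values are given as CPM (counts relative to the library total after TMM scaling). Sensitivity to rare transcripts was uneven: HxD1 and KO3 had 43.7% and 45.9% of the genes with a mean of 1 to 5 CPM at 0, KO1 and V2 had 27.3% and 24.5%, and the other 8 libraries had 1.80% to 20.8%. Germ cell markers were present throughout, the 8 of the list summing to 2741 to 3760 CPM, while 10 gonadal soma markers summed to only 5.38 to 48.3 CPM. The sum hides differences between groups. Over the mean of the mutants 2 of the 8 germ cell markers were called higher and 1 lower, beside 0.588% and 0.637% of all genes. The 6 blood and endothelial markers summed to 117 to 253 CPM, nearly all from Pecam1 (106 to 252 CPM), which germ cells also express. Ptprc and Kdr were at 0 in 10 libraries, Hbb-bt and Hba-a1 in 9, and Foxl2 in 7. Tet1 was at 91.4, 180.1 and 215.0 CPM in WT, 130.7, 158.3 and 80.8 CPM in KO, 227.0, 221.7 and 285.8 CPM in HxD, and 225.7, 197.0 and 192.0 CPM in V. No mutant was called different from WT in Tet1. Because reads were counted over the gene as a whole and the labels do not say what the knockout removes, this level does not check the KO label.

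To compare genes with each other, WT levels were divided by length (the union of exons in GENCODE vM21). Fancd2, which with Fanci forms the clamp that receives the ubiquitin, was at 18.9 CPM per kb, Fanci at 17.9, Fance at 17.7 and Fancb at 16.4. These 4 overlapped among their WT libraries, with a joint range of 14.2 to 23.7 CPM per kb. Fanca (10.3), Fancf (9.47), Fancg (9.03) and Fancl (8.47) came next and also overlapped each other, with a highest library of 12.4 CPM per kb. Fancm was at 6.10 and Fancc at 4.97 CPM per kb, and the Fancm libraries overlapped those of Fanca (narrowly), Fancl, Fancg, Fancf and Fancc. Between Fancb and Fanca the WT libraries did not overlap. Over the length of the longest mRNA instead, Fance (27.9 CPM per kb), Fancd2 (27.2), Fanci (22.3) and Fanca (20.2) led and Fancm was lowest (8.19), so the place of single genes depended on the length used.

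Fancm, whose protein is a DNA translocase that recognizes stalled forks and recruits the core complex, was about 2 times as high in the knockout as in WT. It stood at 46.7, 78.1 and 66.4 CPM in the WT libraries (63.7 ± 15.9, SD, n = 3) and at 114, 161 and 104 CPM in KO (126 ± 30.2). HxD had 96.2, 83.6 and 127 CPM (102 ± 22.5), and V had 90.3, 88.9 and 78.1 CPM (85.8 ± 6.67). All 9 mutant libraries were above the 3 WT libraries, narrowly so for V3 against WT2 (78.0991 and 78.0929 CPM). Of the 16166 genes tested, 3.84% separated all mutant libraries from WT in this way, 1.79% on the higher side.

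The difference between KO and WT was a log2 fold change of 0.99 ± 0.22 (SE), a fold of 1.98, with an adjusted p of 0.0227 by edgeR's quasi-likelihood test with Benjamini-Hochberg adjustment. In this comparison 1 of the 10 genes was called, beside 1.22% of all genes tested (0.724% higher). Those 197 genes split into 117 higher and 80 lower. When DESeq2's size factors were used, 185 genes were called, 90 higher and 95 lower. In HxD the log2 fold change was 0.68 ± 0.22 with an adjusted p of 0.452, where 0 of the 10 genes and 0.0309% of all genes were called. In V it was 0.43 ± 0.22 with an adjusted p of 0.541, where 0 of the 10 and 0.155% of all genes were called. DESeq2 also called 0 of the 10 in HxD and in V, where it called 84 and 268 of all genes. At an unadjusted p under 0.05 by edgeR there was 1 member in HxD (Fancm) and 0 in V, beside 7.25% and 9.69% of all genes. In KO there were 3 (Fancm, Fancb and Fancg), beside 13.2%. Over the mean of the 3 mutants it was 0.70 ± 0.19 with an adjusted p of 0.0597, where 0 of the 10 and 1.22% of all genes were called. At an unadjusted p under 0.05 Fancm was the 1 member of 10, beside 13.2% of all genes. DESeq2 and limma-voom called Fancm there, beside 632 of 15319 and 346 of 16166 genes. The difference between mutants was not called: V against KO gave -0.56 ± 0.22 (95% interval -1.01 to -0.11), unadjusted p 0.0170 and edgeR adjusted p 0.945.

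The call in KO was lost without KO2 (0.78, adjusted p 0.136), without WT1 (0.81, adjusted p 0.151), with sample quality weights in limma-voom (0.98, adjusted p 0.0503), and without HxD1, KO1 and KO3 together (1.34, adjusted p 0.0602). The log2 fold change stayed between 0.78 and 1.34 over 21 alternatives, 17 of which made the call. Meiotic entry markers moved with the same groups: the 8 of the list, none at 0 in any library, summed to 3626, 2056 and 1707 CPM in WT, 884 to 1263 CPM in HxD, 627 to 1058 CPM in KO and 672 to 1207 CPM in V. Of these 8 markers, 6 were called lower in KO, 1 in HxD, 3 in V and 8 over the mean of the mutants. WT1, with the lowest Fancm, had the highest sum. KO2 (627 CPM) and HxD3 (884 CPM) had the lowest sums of their groups and the highest Fancm. In V the order of the libraries for the sum was the reverse of that for Fancm. The order was not fully reversed elsewhere. The lowest sum in WT was in WT3 and the highest Fancm in WT2. The highest sums in KO and HxD were in KO1 and HxD1, and the lowest Fancm in KO3 and HxD2. The part of the meiotic markers in the Fancm result was not tested, and in sorted bulk cells fewer expressing cells and less RNA per cell cannot be told apart. The 14 S phase and mitosis markers summed to 4852 to 6730 CPM in WT and 5847 to 7286 CPM in the mutants. WT1 had the lowest sum and KO2 the highest, as for Fancm, while within WT the highest sum was in WT3 and the highest Fancm in WT2. In KO, 13 of the 14 markers had a log2 fold change above 0. By edgeR 3 had an unadjusted p under 0.05, beside 13.2% of all genes, and 0 were called. In HxD, in V and over the mean of the mutants, 12, 14 and 13 of the 14 were above 0. There 3, 3 and 5 had an unadjusted p under 0.05 by edgeR, beside 7.25%, 9.69% and 13.2% of all genes, and 0 were called. The part of these markers in the Fancm result was not tested either. Gm47869 and Gm47870 overlap 1.56% and 5.51% of the exon length of Fancm on the opposite strand. They are not rows of the table, and without strand their reads cannot be told apart from those of Fancm.

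**Figure D1:**
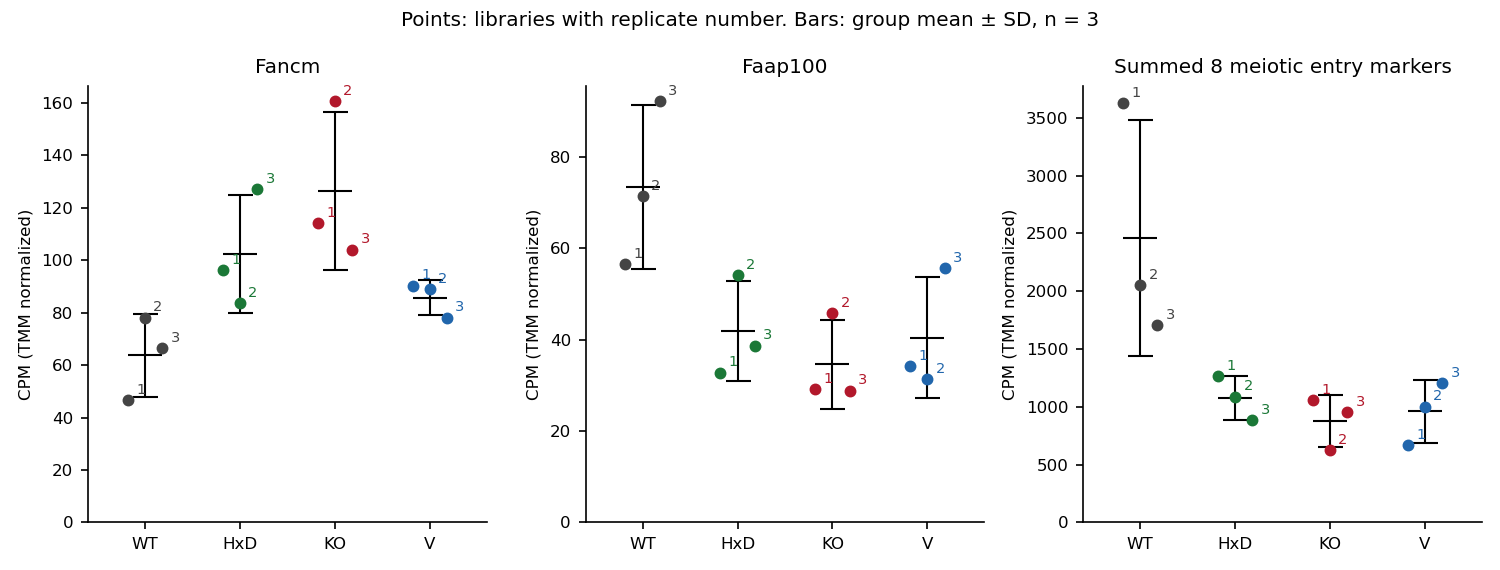
Levels in CPM (vertical axes, from 0) of Fancm, of Faap100 and of the summed 8 meiotic entry markers, by group (horizontal axes). Points are libraries with their replicate numbers and bars are the group mean ± SD (n = 3). All 9 mutant libraries lie above WT for Fancm, with V3 level with WT2, and below WT for Faap100 and for the markers.

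Fancl encodes the RING ubiquitin ligase of the core complex, which sits in a catalytic module with FANCB and FAAP100. Its level varied most among the 10 genes, with a within-group SD of 0.53 on the log2 scale against a median of 0.34 over the 10144 genes averaging 5 CPM or more. The libraries held 39.8, 25.5 and 20.3 CPM in WT, 38.4, 27.4 and 18.6 in HxD, 10.6, 20.2 and 26.4 in KO, and 23.5, 34.6 and 21.7 in V. The groups overlapped throughout. The log2 fold change in KO was -0.58 ± 0.38 with a 95% interval of -1.36 to 0.20, which held both 0 and a fall of 1 on that scale. The lowest value, in KO1, is from a library with a large share of rare genes at 0, and 13.7% of the exon length of Fancl overlaps Vrk2 on the opposite strand, whose reads cannot be told apart without strand.

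Fancb, an X-linked gene whose protein holds the catalytic module together, was among the steadier members (within-group SD 0.17 log2). WT libraries held 51.7, 52.2 and 42.7 CPM (48.9 ± 5.37). KO held 76.2, 65.7 and 64.3 CPM (68.7 ± 6.52), V held 66.4, 55.9 and 66.9 CPM (63.1 ± 6.22), and HxD held 44.9, 60.3 and 55.1 CPM (53.4 ± 7.85). Every KO and V library was above WT, while HxD overlapped WT. Of all genes tested, 8.17% in KO and 8.7% in V lay above WT without overlap. The KO difference, 0.49 ± 0.22 on the log2 scale (95% interval 0.05 to 0.94), had an unadjusted p of 0.0320 and did not pass the edgeR adjustment (adjusted p 0.325). In V it was 0.37 ± 0.22 with an adjusted p of 0.615.

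Faap100 belongs to the same module and was 1 of 34 other pathway genes examined by role. WT held 56.5, 71.4 and 92.1 CPM (73.3 ± 17.9), HxD held 32.7, 54.0 and 38.7 CPM (41.8 ± 10.97), KO held 29.1, 45.8 and 28.8 CPM (34.6 ± 9.72), and V held 34.3, 31.3 and 55.6 CPM (40.4 ± 13.2). All 9 mutant libraries were below the 3 WT libraries, although V3 and WT1 differed by less than the SD of either group. On the lower side, 2.05% of all genes tested showed this separation. Over the mean of the 3 mutants the log2 fold change was -0.92 ± 0.22, a 1.89-fold lower level, with an edgeR adjusted p of 0.0301. It was -1.08 ± 0.28 in KO (adjusted p 0.0519), -0.81 ± 0.28 in HxD (adjusted p 0.496) and -0.86 ± 0.28 in V (adjusted p 0.245), so edgeR called no single mutant, while DESeq2 called KO (adjusted p 0.0118). The call over the mean was lost when any of 7 of the 12 libraries was left out (HxD3, KO1, V1, V2, WT1, WT2 or WT3), with values of -1.08 to -0.72 and adjusted p up to 0.156 over all 12 removals, and without HxD1, KO1 and KO3 together (-0.73, adjusted p 0.125). Meiotic entry markers fell in the same libraries, with the sums given for Fancm, and their part in this result was not tested. Within groups the order differed. WT1, with the highest WT sum (3626 CPM), had the lowest Faap100 in WT, and WT3, with the lowest (1707 CPM), had the highest. In KO, KO2 had the lowest sum (627 CPM) and the highest Faap100, while in V, V3 was highest for both.

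Fanca and Fancg encode the core complex subunits that bind one another and stabilize the complex. Fanca held 65.4, 108 and 97.4 CPM in WT, 144, 87.8 and 110 in HxD, 110, 120 and 72.6 in KO, and 94.6, 116 and 77.3 in V. Its groups overlapped, and the largest difference from WT was 0.34 ± 0.23 on the log2 scale in HxD (adjusted p 0.837). Fancg held 36.7, 42.0 and 24.1 CPM in WT, 20.3, 22.4 and 28.8 in HxD, 20.8, 25.3 and 17.3 in KO, and 24.8, 24.9 and 36.3 in V. Its mean was lower than WT in each mutant, but WT3 lay within the range of the mutants. The KO value, -0.70 ± 0.33 (95% interval -1.37 to -0.03), had an unadjusted p of 0.0423 and an edgeR adjusted p of 0.356.

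Fancc, Fance and Fancf encode the subunits that form a further module, which joins the core complex to FANCD2 through FANCE and to FANCM through FANCF. Fancc held 36.7, 40.5 and 47.4 CPM in WT, 56.3, 37.2 and 35.5 in HxD, 29.9, 38.4 and 21.4 in KO, and 38.8, 49.6 and 38.1 in V. Its KO difference was -0.47 ± 0.28 with an adjusted p of 0.469, with KO2 inside the WT range. Fance held 68.1, 45.2 and 56.2 CPM in WT, 75.0, 54.0 and 42.9 in HxD, 49.7, 48.7 and 64.0 in KO, and 54.3, 77.3 and 44.4 in V, and its log2 differences from WT lay between -0.06 and 0.06. Fancf held 11.1, 18.5 and 18.5 CPM in WT, 5.22, 12.2 and 12.1 in HxD, 16.6, 14.7 and 12.7 in KO, and 10.3, 20.8 and 15.2 in V. HxD1, at 148 counts, gave Fancf its lowest value, and the HxD difference of -0.70 ± 0.48 had a 95% interval of -1.69 to 0.28. A difference of this size in Fancf was not detectable at this spread.

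Fancd2 and Fanci encode the paired proteins that are ubiquitinated and clamp onto DNA. Fancd2 held 113, 148 and 188 CPM in WT, 171, 135 and 134 in HxD, 136, 180 and 161 in KO, and 136, 140 and 124 in V. The WT libraries spanned all mutant libraries, and the log2 differences were -0.03 ± 0.19 in HxD, 0.08 ± 0.19 in KO and -0.17 ± 0.19 in V. Fanci was the steadiest member, with a within-group SD of 0.091 log2 and a highest library 1.39 times the lowest. Its libraries held 107, 94.8 and 109 CPM in WT, 107, 93.8 and 106 in KO, 78.0, 85.3 and 80.6 in HxD, and 91.0, 92.1 and 83.3 in V. All HxD and V libraries were below WT and KO overlapped it, and 5.77% and 7.48% of all genes tested lay below WT without overlap in HxD and V. The differences were not called: -0.35 ± 0.18 in HxD (95% interval -0.72 to 0.02, adjusted p 0.719) and -0.22 ± 0.18 in V (adjusted p 0.790). Polg overlaps 15.95% of the exon length of Fanci on the opposite strand. Among other members, such overlaps included Gm16133 with Fancc (16.4%), Gas2 with Fancf (15.0%) and Zfp276 with Fanca (10.5%).

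**Figure D2:**
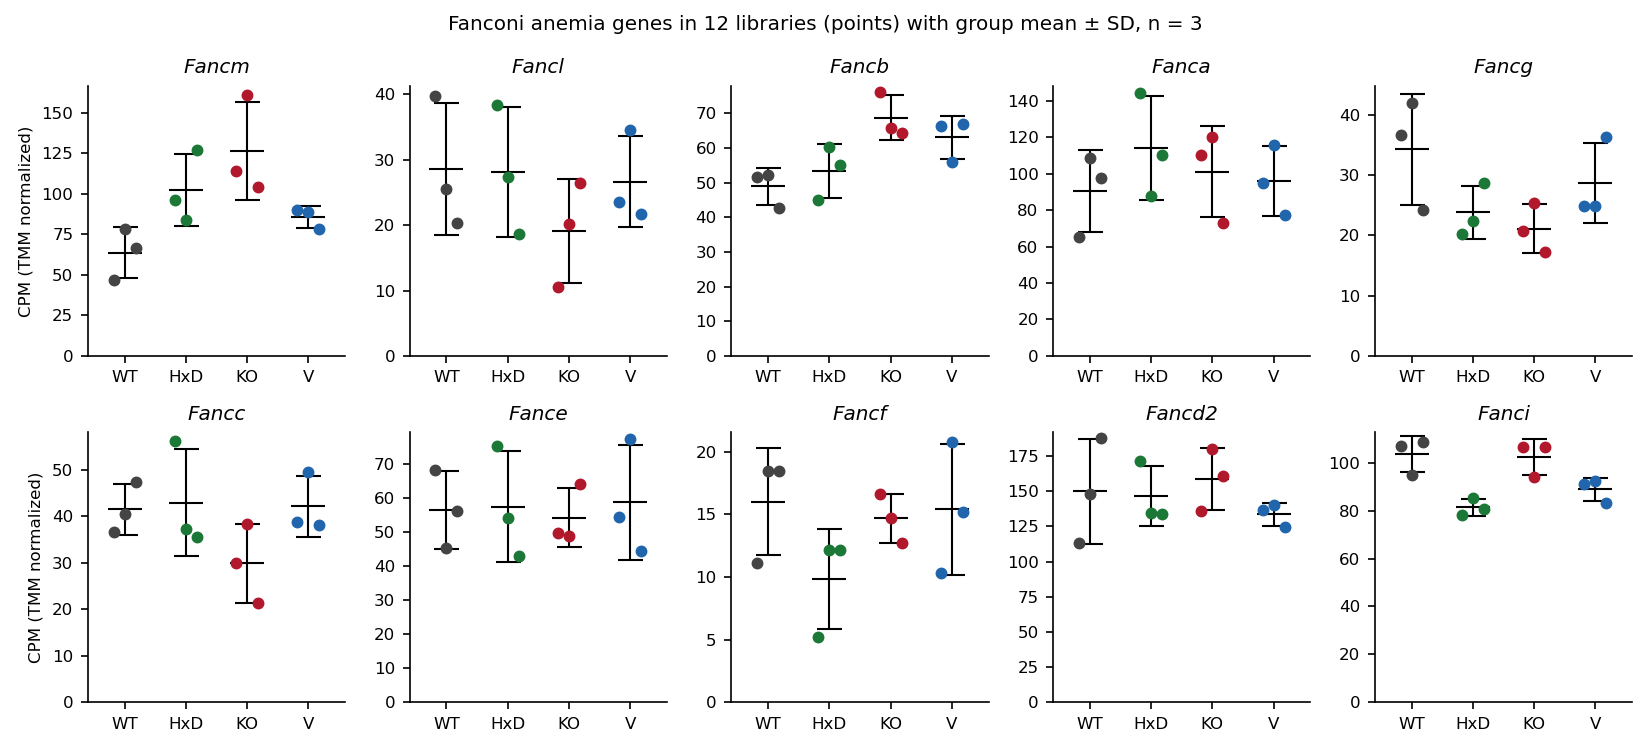
Levels of the 10 Fanconi anemia genes in CPM (vertical axes, from 0) by group (horizontal axes), with points for libraries and bars for the mean ± SD (n = 3). Fancm is the gene whose 9 mutant libraries all lie above WT, Fanci has the tightest groups, and Fancl and Fancf have the widest.

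The 10 genes as a list lay close to all genes tested. The median log2 fold change of the 10 was 9.1e-05 in HxD, -0.04 in KO, -0.02 in V and -0.09 over the mean of the mutants, beside -0.01, -0.02, 0 and -0.03 over all 16166 genes. Of 30 differences between a mutant and WT, 24 were smaller than 0.5 on the log2 scale and 1 was called. The 95% intervals reached 0.37 to 0.99 on either side of the estimate, and for Fanci and Fancd2 a change of 1 on the log2 scale lay outside the interval in every mutant, which was not so for Fancf. These 3 comparisons share their WT libraries. Summed over the 10 genes, the libraries held 576 to 669 CPM in WT, 605 to 729 in HxD, 650 to 767 in KO and 586 to 700 in V.

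**Figure D3:**
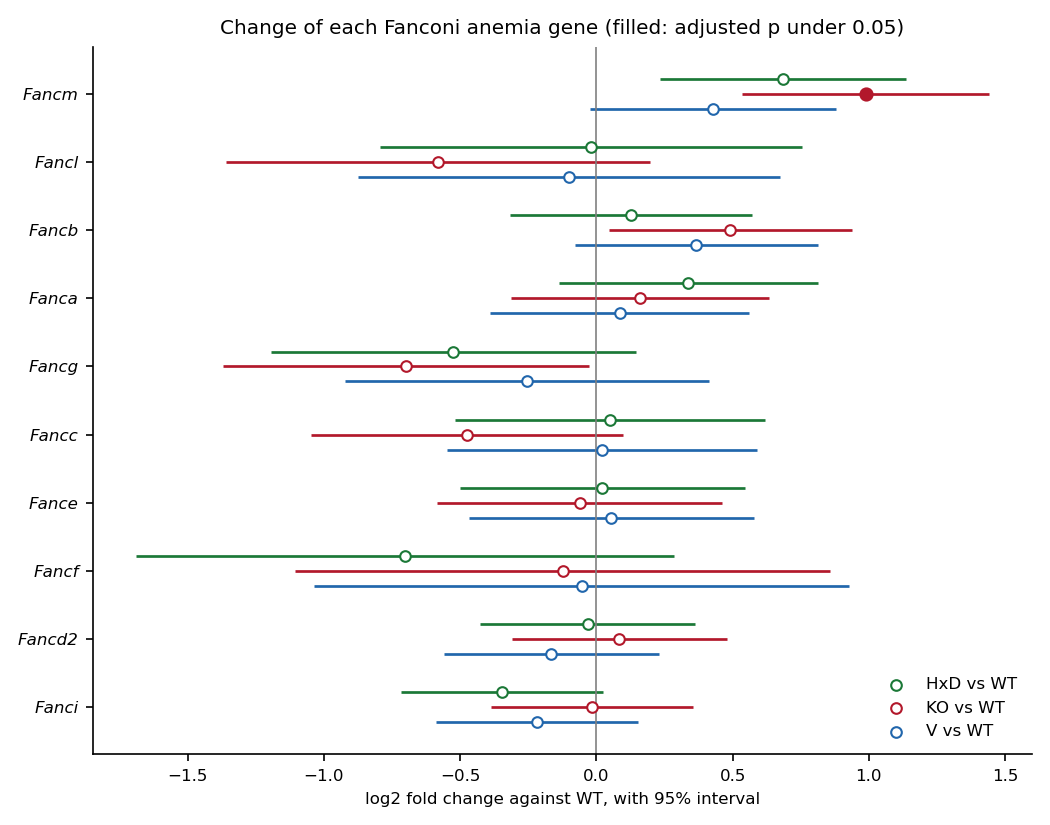
Log2 fold change against WT (horizontal axis) with 95% intervals for each Fanconi anemia gene in HxD, KO and V, filled where the edgeR adjusted p was under 0.05. The filled point is Fancm in KO, at 0.99.

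Between the mutants no member was called among 30 differences, which ranged from -0.58 to 0.65 on the log2 scale with adjusted p of at least 0.945. Of all genes tested, 0% were called in HxD against KO, V against KO and V against HxD by edgeR. At an unadjusted p under 0.05 there were 514, 747 and 326 genes (3.18%, 4.62% and 2.02%), and DESeq2 called 34, 21 and 20. Of the 30 member differences, 1 had an unadjusted p under 0.05, that of Fancm in V against KO. The widest intervals reached 0.99 on either side, so a p above the threshold does not show that the alleles act alike.

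The 34 other genes of the pathway were grouped by role, and all 34 were tested. In KO, HxD and V none was called by edgeR, with 5, 1 and 2 of 34 at an unadjusted p under 0.05, beside 13.2%, 7.25% and 9.69% of all genes, which is near or below the background. DESeq2 called 2 in KO (Faap100 and Uimc1, both lower), beside 626 of 15626 genes with an adjusted p. It called none in HxD or V, beside 84 and 268 of all genes. Over the mean of the mutants 1 was called lower (Faap100) and none higher, beside 0.637% and 0.588% of all genes. Their median log2 fold changes were 0.00 in HxD, -0.02 in KO, -0.08 in V and -0.01 over the mean. Among 5 core complex partners, Faap24 and Faap20, at low levels, had intervals too wide to place. The ubiquitin cycle held 5 genes, and the one with the smallest p was Uimc1, which encodes a ubiquitin-binding subunit of the BRCA1-A complex. Uimc1 was at 78.2 ± 21.1 CPM in WT, 62.7 ± 8.28 in HxD, 45.7 ± 5.61 in KO and 64.1 ± 7.004 in V, a mean log2 difference of -0.46 ± 0.18 with an adjusted p of 0.243.

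Downstream genes were not called either. Of 7 nuclease genes, Fan1, a structure-specific nuclease recruited by ubiquitinated FANCD2, went from 5.53 to 17.6 CPM in WT to 16.6 to 26.01 CPM in the mutants, with a log2 difference of 0.78 ± 0.35 and an adjusted p of 0.334. Of 7 homologous recombination genes, none was called. Of 3 translesion synthesis genes, Rev1, a scaffold polymerase, differed by 0.12 ± 0.17 (adjusted p 0.826). Of 4 Bloom complex genes, Blm, a helicase that FANCM recruits, differed by 0.30 ± 0.17 (adjusted p 0.447). Among 3 checkpoint genes, Atr, the kinase activated at stalled forks, differed by -0.24 ± 0.15 (adjusted p 0.505). In each of these genes the 9 mutant libraries together overlapped WT. By mutant, every KO library of Fan1 was above WT and every V library of Atr was below it, neither called. Of the 34 other pathway genes, 2 lay above WT without overlap in KO and 3 below, and 0 above and 5 below in V. Of all genes tested, 8.17% lay above and 8.36% below in KO, and 8.7% above and 7.48% below in V.

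**Figure D4:**
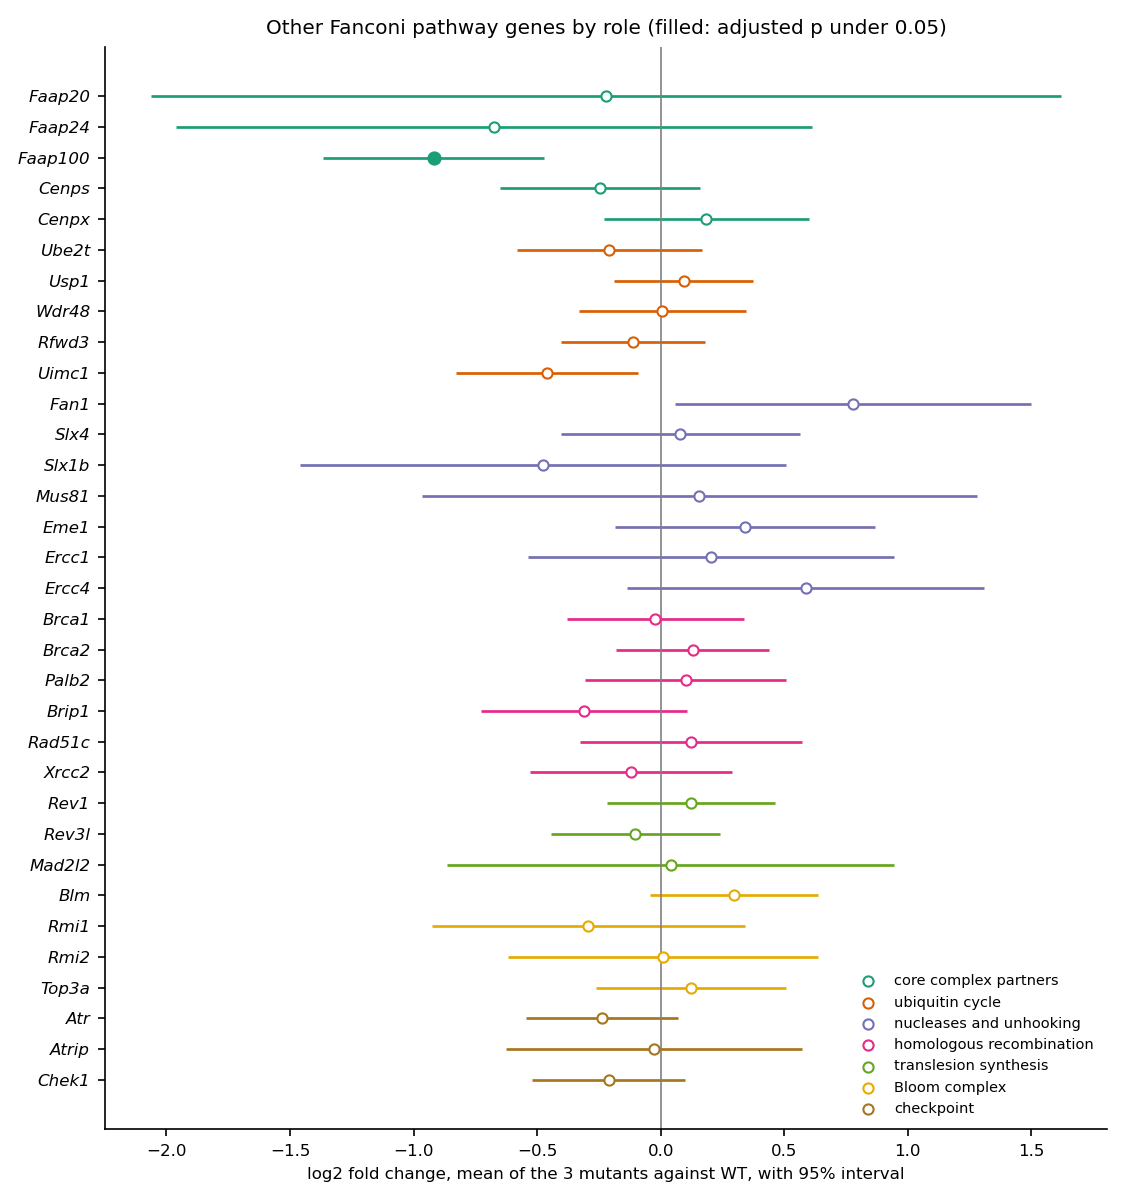
Log2 fold change over the mean of the 3 mutants against WT (horizontal axis) with 95% intervals for 33 of the 34 other pathway genes, coloured by role and filled where the edgeR adjusted p was under 0.05. Faap100, at -0.92, is the filled point, and the intervals of Faap20 and Faap24 are the widest among the core complex partners.

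The genes outside the pathway lists whose levels ran most like the summed log2 CPM of Fancd2 and Fanci, among 10101 candidates over the 12 libraries, were 4930412O13Rik (Pearson r 0.84), Eif4g3 (0.83) and Srgap3 (0.81). The points share libraries, depth and scaling, so this is a description of these 12 libraries. Fancd2 and Fanci themselves ran little alike (Pearson r 0.11), and Fancd2 varied more, with a within-group SD of 0.24 log2 against 0.091.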

How the data were processed

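The authors deposited whole-number counts per gene, not normalized. Tools named in the submitters' processing notes were featureCounts 2.0.3, STAR 2.7.10b, Trim Galore 0.6.7, SAMtools 1.9 and FastQC. The builds GRCm39 and mm10 are named there without a role, so no gene coordinates beyond the RefSeq promoters are given. Annotation, strand setting and handling of multi-mapped reads: not given in the sources used here. The counts were fitted with edgeR 4.0.16 in R 4.3.3 (TMM, default filterByExpr, quasi-likelihood F test, group as the only term, all 12 libraries), with Benjamini-Hochberg adjustment over 16166 genes and a threshold of 0.05, for 7 comparisons. Scripts were tested on simulated data. Alternatives were DESeq2 1.42.0 and its size factors, limma-voom (limma 3.58.1), other filters, a replicate block, only the groups compared, and leaving out libraries. Replicates differed by at least 31.7 in chi-square per degree of freedom, so none was a repeat deposit of the same counts. The members and lists were chosen with earlier results of these data known. Named outside the 10 genes were Tet1, called pathway genes, the gene of smallest p per role over the mean of the mutants, and the 3 genes most like Fancd2 and Fanci. For 1 role, the gene this rule names is not reported here.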

Additional observations from a re-analysis of the deposited data

How the results depend on the processing

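Among the 10 genes, the count called in KO against WT, 1 (Fancm), fell to 0 with limma-voom and sample quality weights and without HxD1, KO1 and KO3 together, and ranged from 0 to 1 when each library was left out in turn (0 without KO2 or WT1). Over the mean of the mutants, the count of 0 became 1 (Fancm) with DESeq2 (adjusted p 0.0253), limma-voom (0.0475), no filter on low counts (0.0110), the replicate block (0.0353), and without HxD1, KO1 and KO3 together (0.0425), and ranged from 0 to 1 with single libraries left out (1 without KO3, 0.0430). Without WT1 the Fancm value there was 0.52 (adjusted p 0.451). For the 9 members other than Fancm, 0 of 1314 values over 7 comparisons and all alternatives were called, and of 1460 values over all 10 members 86 had another sign than reported, each uncalled. Faap100 in KO passed the threshold in 6 of 21 alternatives, between -1.34 and -0.68 on the log2 scale. The share of higher calls in KO is given in the text. The count over all genes in KO, 197, was 626 with DESeq2, 464 with no filter, 112 with sample quality weights, 30 without HxD1, KO1 and KO3, and 31 to 357 with 1 library left out (31 without WT1). Over the mean, 198 became 632, 429, 343, and 346 with limma-voom, and 29 to 313 with 1 library left out (29 without WT1). In HxD the count of 5 became 84 with DESeq2, 71 with no filter, 22 with the replicate block, 15 and 22 with limma-voom without and with weights, 1 with a mean of at least 5 CPM, 20 with only the groups compared, and 1 to 35 with 1 library left out. In V, 25 became 268 with DESeq2, 176 with no filter, 145 with weights, 73 with the replicate block, 5 with a mean of at least 5 CPM, 16 without HxD1, KO1 and KO3, and 2 to 110 with 1 library left out. The cause of these shifts was not tested. Pairing by replicate number was not seen in deviations from the group means. The 18 same-numbered pairs correlated between -0.17 and 0.13, and 3 of 12 libraries correlated best with their own number. With 3 libraries per group these values cannot exclude a shared litter or batch. The replicate block raised the count over all genes against WT in each comparison, to 285 in KO and 250 over the mean. The 10 genes held 148 to 4854 counts per gene and library, and the part of count sampling in the spread between libraries was not tested.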
